A study of Rattus norvegicus with 29 samples.

Results

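Circulating miRNAs were compared between injured and sham-operated rats of the Monash site. Members were all rats whose libraries were labelled as Monash TBI (5 rats) or Monash sham (3 rats), which made 8 of the 29 rats sequenced. The rats were adult male Sprague-Dawley rats. TBI rats had a severe lateral fluid-percussion injury under isoflurane, and sham-operated experimental controls had the anesthesia and all surgery without the impact. Of the 5 TBI rats, 3 had no epilepsy (TBI−) and 2 had epilepsy (TBI+) in the video-EEG months later, so the outcome was not yet known when blood was drawn. Plasma came from the tail vein 48 h after surgery. One rat gave 1 library, and each value below is from 1 rat. UEF (12 rats) and UCLA (9 rats) served for comparison alone.

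A miRNA is cut from a hairpin precursor whose 5p and 3p arms can each give a mature strand, and it lowers the output of mRNAs that pair with its seed, here bases 2 to 8. miRNAs reach plasma from blood cells, the liver, vessels and other tissues, bound to proteins or carried in vesicles. Some are made mainly in 1 tissue, such as miR-122 in hepatocytes, miR-451 in red cells and miR-124 in neurons. The comparison of TBI with sham asked which of these changed in plasma during the days in which epilepsy may begin to develop. In plasma, the number of source cells and the amount released per cell cannot be told apart.

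Total miRNA counts ranged from 1162307 to 3395469 per Monash rat, and 662 to 735 of the 754 miRNAs in the table had at least 10 counts. The leading miRNAs were those known from plasma: miR-16-5p held a mean of 16.9% of counts, miR-486 10.1%, miR-122-5p 7.96%, miR-191a-5p 5.57% and miR-223-3p 5.08%. Not all libraries were alike. The 3 sham rats, TBI− rat 1 and TBI− rat 3 resembled each other, with Spearman correlations of log2 CPM (counts scaled to the library's total with its TMM factor) from 0.927 to 0.954 over 734 miRNAs. TBI− rat 2 correlated with these 5 rats at 0.837 to 0.851. TBI+ rat 1 correlated with the 6 sham and TBI− rats at 0.825 to 0.899, and TBI+ rat 2 at 0.782 to 0.846. In TBI− rat 2, 10 miRNAs with at least 50 counts were at least 5 times above every other Monash rat, and in TBI+ rat 2 there were 8, whereas the other 6 rats had 0. The labels name no batch, so results that rest on these 3 rats are also given without them.

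The mature sequences of the miRNAs that lead the comparison are shown with their seed in capitals, written 5′ to 3′. They are RefSeq sequences on the rat build GRCr8, where 674 of the 754 names in the table had a mature entry.
miR-301b-3p: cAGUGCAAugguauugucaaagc
miR-96-5p: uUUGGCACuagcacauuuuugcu
miR-183-5p: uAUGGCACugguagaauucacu
miR-592: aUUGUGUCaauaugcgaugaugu
miR-212-5p: aCCUUGGCucuagacugcuuacug
miR-6331: cUUUGGUGgcuuaguucuuugugc
miR-3543: cAGGAGUCgagugaugguucaaa
miR-101a-5p: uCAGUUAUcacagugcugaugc
miR-134-3p: cUGUGGGCcaccuagucaccaa
miR-351-3p: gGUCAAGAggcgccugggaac
miR-192-3p: cUGCCAGUuccauaggucacag
These are 11 of the 12 miRNAs with the lowest p in TBI against sham, those higher and then those lower after TBI. The other one is miR-124-5p. No seed occurs more than once among them. miR-96-5p (chr4:59755901-59755923, minus strand) and miR-183-5p (chr4:59756106-59756127, minus strand) lie 205 bases apart in the cluster that they form with miR-182. miR-134-3p (chr6:134570359-134570380), miR-6331 (chr6:134564374-134564397) and miR-3543 (chr6:134330451-134330473, minus strand) lie in the imprinted Dlk1-Dio3 region, where miR-3543 is read from the strand opposite miR-434-3p inside the gene Rtl1. miR-592 lies in the gene Grm8, which encodes a glutamate receptor.

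None of the 734 miRNAs tested passed in TBI against sham at Monash (0%, edgeR quasi-likelihood test, Benjamini-Hochberg adjusted p under 0.05). The lowest adjusted p was 0.908. At an unadjusted p under 0.05 there were 14 higher miRNAs (1.91% of those tested) and 11 lower (1.5%). DESeq2 also called 0, with 33 at an unadjusted p under 0.05 and a lowest adjusted p of 0.648. The median log2 fold change over all miRNAs was -0.01, and 61 miRNAs had a log2 fold change beyond 1 in either direction. With 5 against 3 rats, the 95% interval of a log2 fold change reached a median of 0.92 to each side. Differences of less than that were not detectable for most miRNAs. The interval is not adjusted for the 734 tests, so differences well above 0.92 could also be missed. The largest log2 fold change, 4.18 for miR-3543, did not pass. In 17 miRNAs the groups did not overlap: 5 had all TBI rats above all sham rats (0.681%) and 12 had all TBI rats below (1.63%). This count and its direction depended on the scaling. With counts scaled to library totals alone, without TMM factors (an added setting), 7 had all TBI rats above (0.954%) and 3 below (0.409%). Of the 17, only miR-301b-3p was still separated, at 5.85 to 8.13 against 9.72 to 29.6 CPM, and the other 16 overlapped. The TMM factor was lowest in sham rat 2 (0.6817) and 0.7873 to 1.268 in the other 7 rats. Values below are TMM-scaled, and of the 17 separations of TBI from sham rats only that of miR-301b-3p was present on total counts.

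**Figure D1:**
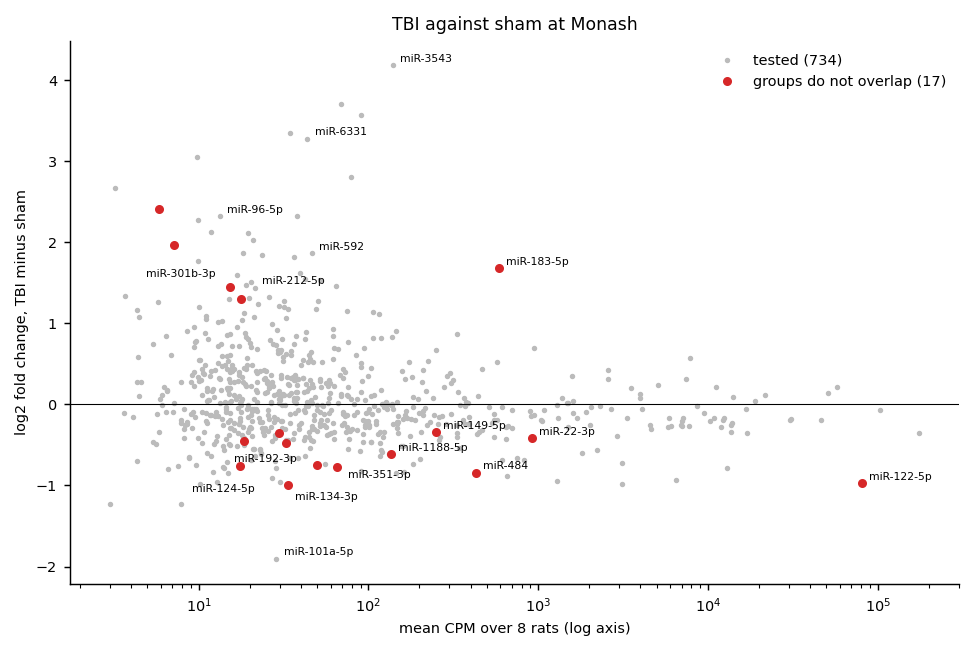
Each point is 1 of the 734 miRNAs tested in the 8 Monash rats, with its mean CPM on a log axis and its edgeR log2 fold change (TBI minus sham). The 17 miRNAs in red had groups that did not overlap, and most of them were lower after TBI on this TMM scale (5 higher and 12 lower, against 7 and 3 on total counts). The largest difference, that of miR-3543, came with overlapping groups.

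Of the 12 miRNAs with the lowest p, 7 were higher after TBI, and only in miR-301b-3p and miR-183-5p did every TBI rat exceed every sham rat. miR-301b-3p belongs to the miR-130/301 family. It was at 7.19, 8.58 and 5.99 CPM in the sham rats, at 20.6, 23.2 and 12.3 CPM in the TBI− rats and at 20.5 and 23.4 CPM in the TBI+ rats. The 5 TBI rats all lay above the sham rats, with TBI− rat 3 the lowest of them. The log2 fold change was 1.44 (SE 0.40, 95% interval 0.56 to 2.32, quasi-likelihood adjusted p = 0.908), and with the TBI− rats alone it was 1.38. At 7 to 73 counts per rat it was near the lower end of what was measured. Its family members with the same seed, named here for that seed, were more abundant and overlapped. miR-130a-3p was at 240 to 336 CPM in sham and 186 to 361 CPM in TBI rats, and miR-130b-3p at 47.9 to 77.9 and 46.5 to 93.1 CPM.

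miR-183-5p, of the cluster that is most active in sensory cells, was at 235, 289 and 220 CPM in the sham rats. It reached 424, 1542 and 296 CPM in the TBI− rats and 1414 and 299 CPM in the TBI+ rats. TBI− rat 2 and TBI+ rat 1 stood far above the others, and TBI− rat 3 and TBI+ rat 2 were only just above the highest sham rat. The log2 fold change was 1.68 (SE 0.63, 95% interval 0.30 to 3.06, quasi-likelihood adjusted p = 0.908), 1.34 without TBI− rat 2 and 0.56 without that rat and the TBI+ rats. Its cluster partner miR-96-5p was at 5.39, 4.04 and 1.71 CPM in sham, 11.7, 44.1 and 4.86 CPM in TBI− and 25.4 and 10.1 CPM in TBI+ rats. TBI− rat 3 fell within the sham range. miR-96-5p had a log2 fold change of 2.32 (SE 0.78, quasi-likelihood adjusted p = 0.908), which was 1.11 without TBI− rat 2 and the TBI+ rats. The third miRNA of the cluster, miR-182, was at 219, 227 and 215 CPM in sham, 344, 730 and 237 CPM in TBI− and 509 and 184 CPM in TBI+ rats. TBI+ rat 2 lay below the sham rats there, and the log2 fold change was 0.86 (SE 0.45), or 0.42 without TBI− rat 2 and the TBI+ rats. The 3 miRNAs had their highest value in the same rat, TBI− rat 2.

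miR-592 was at 25.8, 14.6 and 12.0 CPM in sham, 23.8, 168 and 23.2 CPM in TBI− and 49.6 and 54.5 CPM in TBI+ rats. Only TBI− rat 2 and the TBI+ rats were above the sham range, and the log2 fold change of 1.87 (SE 0.68) fell to 0.42 without these 3 rats. miR-212-5p comes from the miR-212/132 locus, which is induced by neuronal activity. It was at 15, 9.09 and 6.84 CPM in sham, 12.6, 54.9 and 11.6 CPM in TBI− and 28.5 and 33.4 CPM in TBI+ rats. The same 3 rats were the high ones, and the log2 fold change of 1.44 (SE 0.57) was 0.22 without them. For both miRNAs the quasi-likelihood adjusted p was 0.908.

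miR-3543 and miR-6331 had the largest log2 fold changes of the 12, and both rested on 1 rat. miR-3543 was at 12.0, 5.55 and 18.8 CPM in sham, 17.0, 996 and 16.5 CPM in TBI− and 32.3 and 18.3 CPM in TBI+ rats. miR-6331 was at 8.98, 7.57 and 3.42 CPM in sham, 15.2, 271 and 6.36 CPM in TBI− and 16.8 and 21.1 CPM in TBI+ rats. Apart from TBI− rat 2, only TBI+ rat 1 exceeded the sham rats in miR-3543, whereas in miR-6331 all TBI rats but TBI− rat 3 did. The log2 fold changes of 4.18 (SE 1.64) and 3.28 (SE 1.26) became 0.87 and 1.18 without TBI− rat 2. In 1 normalization of all 29 libraries, miR-3543 was at 966 CPM in that rat and at most 46.4 CPM in the other 28, and miR-6331 at 262 CPM and at most 28.7 CPM. A similar excess was seen in that library in miR-881-5p (624 CPM, at most 23.5 CPM in the others), miR-675-3p (501 and 39.5 CPM) and miR-105 (467 and 19.7 CPM), which were chosen after their values were seen. Its part in the results was not tested beyond leaving the library out.

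**Figure D2:**
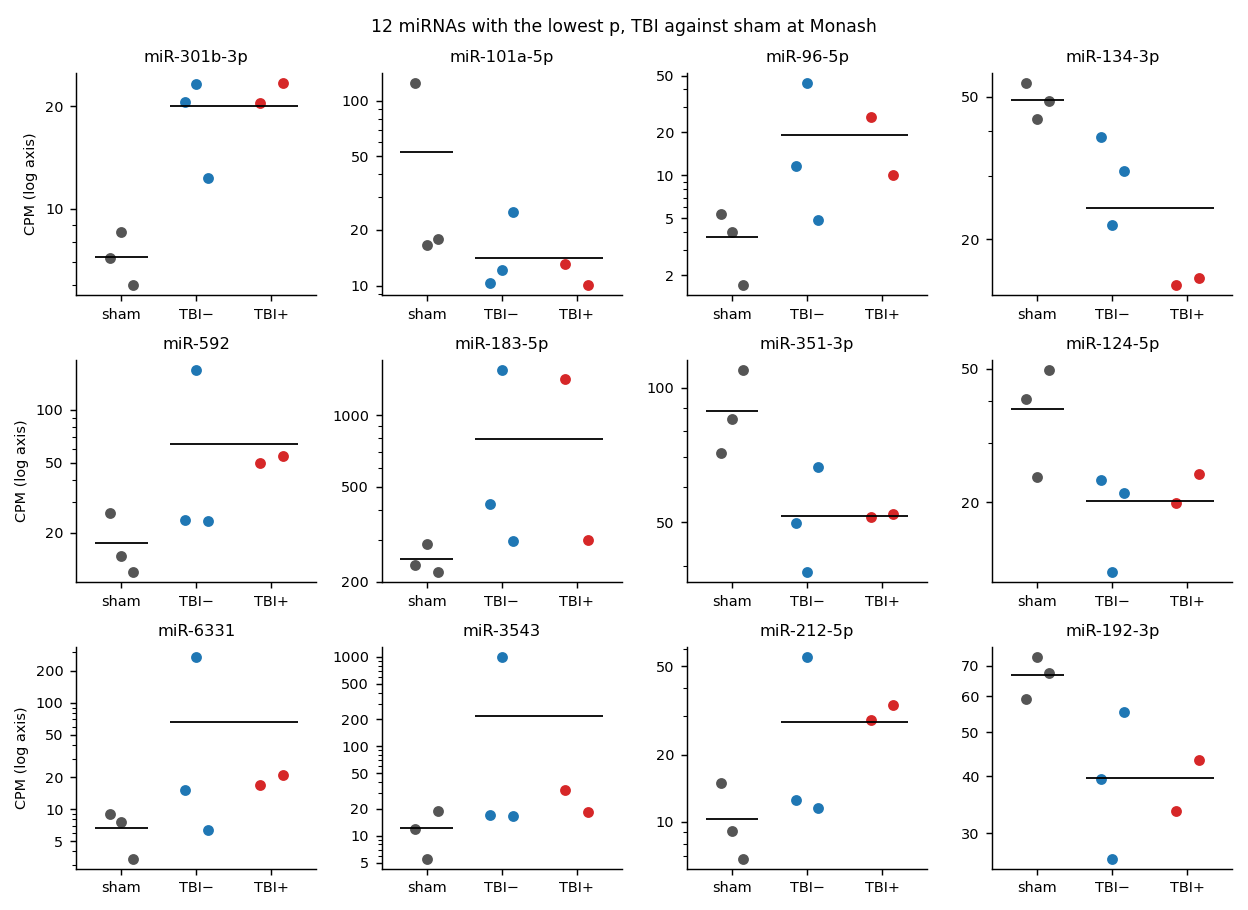
CPM (log axis, own range in each panel) of the 12 miRNAs with the lowest p in TBI against sham, 1 point per Monash rat and horizontal bars at the mean of the 3 sham and of the 5 TBI rats. In miR-592, miR-6331, miR-3543 and miR-212-5p the highest point is TBI− rat 2, and in miR-101a-5p the sham mean rests on sham rat 1.

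The other 5 of the 12 were lower after TBI, and in miR-134-3p, miR-351-3p and miR-192-3p the groups did not overlap. miR-134 is a brain miRNA of the Dlk1-Dio3 region that restrains dendritic spine growth. Its 3p arm was at 54.5, 43.4 and 48.7 CPM in sham, 38.6, 21.9 and 31.1 CPM in TBI− and 14.9 and 15.6 CPM in TBI+ rats. The TBI+ rats were the lowest, and the log2 fold change was -1.0 (SE 0.36, 95% interval -1.79 to -0.20). It was -0.66 with the TBI− rats alone and -0.47 without TBI− rat 2 and the TBI+ rats. The more abundant 5p arm overlapped, at 54.5 to 174 CPM in sham and 72.8 to 179 CPM in TBI rats.

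miR-351-3p, of the X-linked cluster with miR-322 and miR-503, was at 71.3, 85.3 and 109 CPM in sham, 49.8, 38.7 and 66.6 CPM in TBI− and 51.5 and 52.2 CPM in TBI+ rats. The TBI− and TBI+ rats were alike, and the log2 fold change was -0.77 (SE 0.29), or -0.75 with the TBI− rats alone. miR-124-5p is the less abundant strand of the neuronal miR-124 hairpin in most cells. It was at 40.7, 23.7 and 49.6 CPM in sham, 23.3, 12.4 and 21.3 CPM in TBI− and 19.9 and 24.3 CPM in TBI+ rats, so that only sham rat 2 reached the TBI range. Its log2 fold change was -0.90 (SE 0.35). The 3p arm, by contrast, had a higher mean in TBI than in sham rats, with ranges of 17.7 to 33.3 CPM in sham and 19.5 to 70.1 CPM in TBI rats.

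miR-101a-5p had the largest decrease of the 12, and it rested on 1 sham rat. The sham rats were at 125, 16.7 and 18.0 CPM, the TBI− rats at 10.3, 12.1 and 25.1 CPM and the TBI+ rats at 13.0 and 10.1 CPM. The log2 fold change of -1.91 (SE 0.63) was -0.20 without sham rat 1. miR-192-3p, from a locus active in liver and intestine, was at 59.3, 73.2 and 67.5 CPM in sham, 39.5, 26.4 and 55.4 CPM in TBI− and 33.5 and 43.5 CPM in TBI+ rats. No TBI rat reached the sham range, with a log2 fold change of -0.75 (SE 0.31), or -0.48 without TBI− rat 2 and the TBI+ rats. For these 5 miRNAs the quasi-likelihood adjusted p was 0.908.

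Among abundant miRNAs (mean of at least 100 CPM) with groups that did not overlap, miR-183-5p was the only one higher after TBI of the 6 with the largest differences, and the other 5 were lower. miR-122-5p, the main miRNA of hepatocytes, was at 82449, 140373 and 128602 CPM in sham, 50749, 18331 and 78428 CPM in TBI− and 79585 and 71505 CPM in TBI+ rats. TBI− rat 2 was the lowest, and TBI+ rat 1 came close to sham rat 1. The log2 fold change was -0.97 (SE 0.44, quasi-likelihood adjusted p = 0.908). As a share of all counts, miR-122-5p was 9.33%, 9.57% and 12.9% in sham and 9.71% and 9.07% in TBI+ rats, which overlapped, against 4.83%, 2.04% and 6.17% in TBI− rats.

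miR-484 was at 667, 513 and 612 CPM in sham, 199, 405 and 453 CPM in TBI− and 444 and 164 CPM in TBI+ rats. The low values came from both outcomes, with a log2 fold change of -0.84 (SE 0.39, quasi-likelihood adjusted p = 0.908). The other 3 differed by less. miR-1188-5p of the Dlk1-Dio3 region was at 144 to 213 CPM in sham and 96.6 to 129 CPM in TBI rats (log2 fold change -0.62, SE 0.27, and -0.34 without sham rat 1). miR-22-3p was at 1042 to 1136 and 609 to 1000 CPM (-0.42, SE 0.29, and -0.18 without TBI− rat 2 and the TBI+ rats). miR-149-5p was at 269 to 311 and 160 to 268 CPM (-0.34, SE 0.28, and -0.19 without TBI− rat 2). In miR-22-3p and miR-149-5p the highest TBI rat, TBI− rat 1, lay just below the lowest sham rat.

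The study followed 7 miRNAs as candidate markers, which it had chosen partly on these rats. None passed over all miRNAs, and 6 of the 7 had log2 fold changes above 0, against 357 of all 734 tested. Their median was 0.60, against -0.01 for all miRNAs tested. Without sham rat 2 the candidates' median was 0.28 and that of all miRNAs 0.09. Besides miR-183-5p, groups overlapped in each candidate. By droplet digital PCR in many more rats of the project, the paper reports a robust rise of every candidate after TBI. That result was not tested here, and a missed threshold in so few rats does not show equal levels. miR-323-3p was at 24.0, 18.7 and 22.2 CPM in sham, 47.5, 31.1 and 34.0 CPM in TBI− and 36.6 and 19.2 CPM in TBI+ rats, where TBI+ rat 2 alone fell among the sham rats (log2 fold change 0.64, SE 0.35). miR-434-3p, also of the Dlk1-Dio3 region, was at 175, 88.8 and 262 CPM in sham, 278, 324 and 220 CPM in TBI− and 308 and 138 CPM in TBI+ rats. Sham rat 2 was the lowest of all and the other sham rats lay among the TBI rats (0.53, SE 0.41). The sham rats weighed much in miR-434-3p and in miR-9a-3p, the 3p strand of a hairpin active in neural cells. Their log2 fold changes were 0.27 and 0.24 without sham rat 2, and 0.94 and 1.56 without sham rat 3.

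miR-9a-3p was at 42.5, 23.2 and 127 CPM in sham, 91.0, 56.5 and 85.3 CPM in TBI− and 139 and 114 CPM in TBI+ rats (log2 fold change 0.61, SE 0.52). miR-124-3p was at 28.1, 17.7 and 33.3 CPM in sham, 49.8, 25.1 and 19.5 CPM in TBI− and 70.1 and 36.2 CPM in TBI+ rats (0.60, SE 0.45). Sham rat 3 lay within the TBI range in both, and in miR-124-3p sham rat 1 as well. miR-132-3p and miR-212-3p come from 1 locus on chromosome 10 and share a seed, shown in capitals.
miR-132-3p: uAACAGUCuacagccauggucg
miR-212-3p: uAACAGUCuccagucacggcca
Despite the shared seed their values went opposite ways within overlapping ranges. miR-132-3p was at 53.0 to 59.3 CPM in sham and 44.9 to 114 CPM in TBI rats (0.23, SE 0.36), and the sign turned without TBI− rat 2 (-0.02). miR-212-3p was at 19.8 to 29.9 CPM in sham and 14.8 to 23.4 CPM in TBI rats (-0.55, SE 0.31).

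miRNAs typical of tissues and blood cells were then described as lists. None of their members passed the threshold, so each is given by its counts and median. Over all 734 miRNAs tested, 357 had log2 fold changes above 0, with a median of -0.01. The sensory cluster had 4 members tested, all with log2 fold changes above 0 and a median of 1.27. Of 28 brain miRNAs tested, 21 had log2 fold changes above 0, with a median of 0.42, and 0 had groups without overlap. The median was 0.21 with the TBI− rats alone and 0.09 without TBI− rat 2 and the TBI+ rats. The most abundant, miR-128-3p, was at 4139, 9301 and 4635 CPM in sham, 11884, 6659 and 14300 CPM in TBI− and 5204 and 6758 CPM in TBI+ rats (log2 fold change 0.57, SE 0.44, and 1.06 without sham rat 2). The high values were those of TBI− rats 1 and 3. miR-138-5p was nearly level at 77.9 to 109 CPM in sham and 86.3 to 107 CPM in TBI rats. Over the Dlk1-Dio3 region, a large imprinted cluster with many brain miRNAs, 47 of 85 were above 0, with a median of 0.04. Its most abundant members overlapped widely, miR-379-3p at 352 to 1117 CPM in sham and 514 to 2274 CPM in TBI rats and miR-411-5p at 177 to 339 and 140 to 550 CPM.

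Liver miRNAs went the other way. Of 9 tested, 8 had log2 fold changes below 0, the median was -0.83, and miR-122-5p, miR-192-3p and miR-194-3p had groups without overlap (background 1.63% of miRNAs lower), though they overlapped when scaled to total counts. The 9 are not separate loci. miR-122-3p comes from the hairpin of miR-122-5p, miR-3591 lies at the same position, and miR-194-5p lies 237 bases from miR-192-3p. miR-192-5p, the second most abundant, was at 6597, 14623 and 6313 CPM in sham, 4339, 5248 and 7073 CPM in TBI− and 3621 and 3838 CPM in TBI+ rats (log2 fold change -0.93, SE 0.38). Sham rat 2 was well above the other sham rats, TBI− rat 3 exceeded both of the others, and the log2 fold change without sham rat 2 was -0.39. The list's median stayed below 0 under 5 other scalings (-0.78 to -0.58) but was -0.37 without sham rat 2. The value of -0.58 came from scaling to total counts, which moved the median of all miRNAs from -0.01 to 0.17.

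Sham rat 2 also led the red cell list. miR-451-5p, named as the red cell member of the ratio below, was at 4954 CPM in it and at 909 and 1095 CPM in the other sham rats, against 1129 to 1945 CPM in the TBI rats. miR-16-5p was at 324862 CPM in sham rat 2 and at 111977 to 211972 CPM in the other 7 rats, and miR-486 at 172107 CPM against 71092 to 115504 CPM. Over 10 red cell miRNAs the median log2 fold change was -0.30, which turned to 0.25 without sham rat 2. The part of red cell RNA in the liver values was not tested.

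The median log2 fold change was -0.20 for white cells and platelets (2 of 8 above 0), -0.29 for inflammation (1 of 8), -0.09 for vessels (1 of 6), 0.15 for muscle (7 of 12), -0.07 for epithelium (5 of 14) and 0.07 for pancreas (4 of 8). None of their tested members had groups without overlap. Apart from inflammation (-0.38 to -0.06), these medians changed sign when 1 rat was left out. They became 0.14 for white cells and platelets without sham rat 1, 0.38 for vessels without sham rat 3, and -0.11 for muscle, 0.25 for epithelium and -0.06 for pancreas without sham rat 2. The muscle median was also -0.04 without TBI− rat 2. With the TBI− rats alone, the median was 0.17 for white cells and platelets and 0.30 for epithelium. miR-223-3p, of myeloid cells and platelets, was at 31214 to 63591 CPM in sham and 30339 to 90078 CPM in TBI rats, and the lymphocyte miR-150-5p at 21220 to 48491 and 19958 to 38468 CPM. miR-146a-5p and miR-21-5p, which rise in inflammation, were at 12181 to 18855 and 10238 to 17016 CPM, and at 11798 to 19585 and 6824 to 16939 CPM. In miR-21-5p the TBI+ rats, at 6824 and 7850 CPM, were below the other 6 rats. The vessel miRNAs miR-143-3p (5586 to 34913 CPM in sham, 6503 to 26281 CPM in TBI rats) and miR-126a-3p (7670 to 9232 and 5086 to 11494 CPM) overlapped.

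Muscle miRNAs varied most between rats, in either group. miR-206-3p was at 16854 CPM in sham rat 3 and 21156 CPM in TBI− rat 1, and at 281 to 3385 CPM in the other 6 rats. The joined entry miR-133a-3p/133b-3p was high in the same 2 rats, at 9531 and 8117 CPM against 350 to 2471 CPM. The epithelial miR-205 and miR-203a-3p were highest in TBI− rat 1 (9550 and 2101 CPM) and lowest in the TBI+ rats (1771 to 2028 and 394 to 431 CPM). The pancreatic islet miRNA miR-375-3p was at 880 to 1361 CPM in sham and 324 to 1877 CPM in TBI rats, and miR-217-5p of the exocrine pancreas at 28.8 to 59.9 and 46.4 to 62.3 CPM. The study's reference miR-28-3p was even, at 459 to 624 CPM in sham and 425 to 685 CPM in TBI rats.

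**Figure D3:**
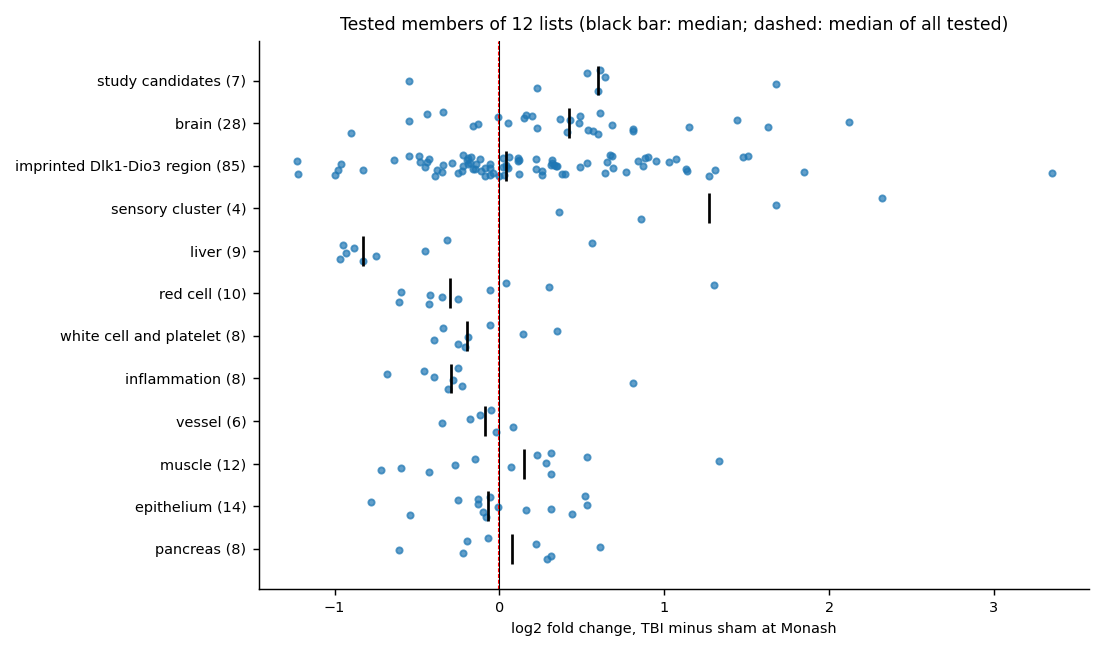
Each point is the edgeR log2 fold change (TBI minus sham at Monash) of 1 tested miRNA of a list, with the number tested in parentheses, black bars at the list's median and a dashed line at the median of all 734 miRNAs (-0.01). The liver list lies mostly to the left with a median of -0.83, and the brain list mostly to the right with a median of 0.42.

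Properties of whole libraries overlapped between the groups. The number of miRNAs with at least 10 counts was 707, 685 and 662 in sham, 701, 722 and 718 in TBI− and 710 and 735 in TBI+ rats. The mean was 717 ± 12.8 (SD, n = 5) in TBI and 685 ± 22.5 (n = 3) in sham rats, a difference of 32.5 (two-sided exact permutation p = 0.0714, adjusted over 4 measures 0.286). Thinned to the lowest total, the difference was 18.5. Total counts were 2323456 ± 833556 in TBI and 1847995 ± 929974 in sham rats (exact p = 0.5, adjusted 0.667). The log2 ratio of miR-451-5p to miR-23a-3p counts, used as a sign of red cell RNA, was -2.61 ± 0.25 in TBI and -2.53 ± 1.06 in sham rats (exact p = 0.786, adjusted 0.786), with sham rat 2 at -1.33 and the other 7 rats between -3.38 and -2.34. The 3 largest miRNAs held 33.6 ± 4.14% of counts in TBI and 37.2 ± 5.61% in sham rats (exact p = 0.357, adjusted 0.667). With 56 regroupings, the smallest p that these tests could give was 0.0357.

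Whether the injury effect at Monash differed from that at UEF and UCLA was tested in 1 fit of the 29 rats. None of 754 miRNAs passed (0%, lowest quasi-likelihood adjusted p 0.108), with 88 at an unadjusted p under 0.05. DESeq2 called 3, and edgeR called 2 without TBI− rat 3. The lowest p belonged to miR-301a-5p, whose log2 fold change was -0.43 (SE 0.80) at Monash, 1.70 (SE 0.74) at UEF and 7.27 (SE 1.48) at UCLA. It was scarce at Monash, at 0 to 7.79 CPM in the 8 rats. miR-484 went opposite ways, at -0.78 (SE 0.34) at Monash and 1.01 (SE 0.30) and 0.76 (SE 0.34) at UEF and UCLA. The difference between Monash and the mean of the other sites was -1.66 (SE 0.41, quasi-likelihood adjusted p = 0.108).

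miR-6331 and miR-3543 followed, with differences of 3.86 (SE 0.98) and 4.03 (SE 1.19) that were 1.68 and 0.65 without TBI− rat 2. let-7f-1-3p was at 9.41 to 14.1 CPM in sham and 12.1 to 27.3 CPM in TBI rats at Monash, and its effect of 0.78 (SE 0.32) there stood against -0.54 (SE 0.25) at UEF and -0.43 (SE 0.29) at UCLA. For these 3 the quasi-likelihood adjusted p was 0.11, 0.264 and 0.264. Of the 12 miRNAs led by miR-301b-3p, miR-192-3p had an effect at UEF that passed over all miRNAs there (-1.57, SE 0.33, quasi-likelihood adjusted p = 0.00243). It was -0.70 (SE 0.41) at Monash and 0.14 (SE 0.40) at UCLA, so the decrease was not seen at UCLA. Monash differed from the mean of the other sites by 0.02 (SE 0.50) in miR-192-3p. The effect of miR-122-5p at UEF was -2.92 (SE 0.51, quasi-likelihood adjusted p = 3.0e-04). In this fit it was -0.92 (SE 0.61) at Monash and -0.10 (SE 0.60) at UCLA. Among the candidates, the effects at UEF passed for miR-434-3p (2.22, SE 0.37, quasi-likelihood adjusted p = 2.7e-04) and miR-323-3p (1.73, SE 0.29, quasi-likelihood adjusted p = 2.7e-04). At Monash they were 0.59 (SE 0.40) and 0.70 (SE 0.33). The tests of the difference gave -0.82 (SE 0.47, quasi-likelihood adjusted p = 0.486) and -0.67 (SE 0.38, quasi-likelihood adjusted p = 0.486) for them, against the mean of both other sites. Over all 754 miRNAs, effects at Monash and UEF had a Pearson r of 0.059 and the same sign in 52.3%, and those at Monash and UCLA an r of -0.135 and the same sign in 41.1%. These correlations run across miRNAs, which are not independent replicates. Without the TBI+ rats of all sites the r with UCLA was 0.05.

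**Figure D4:**
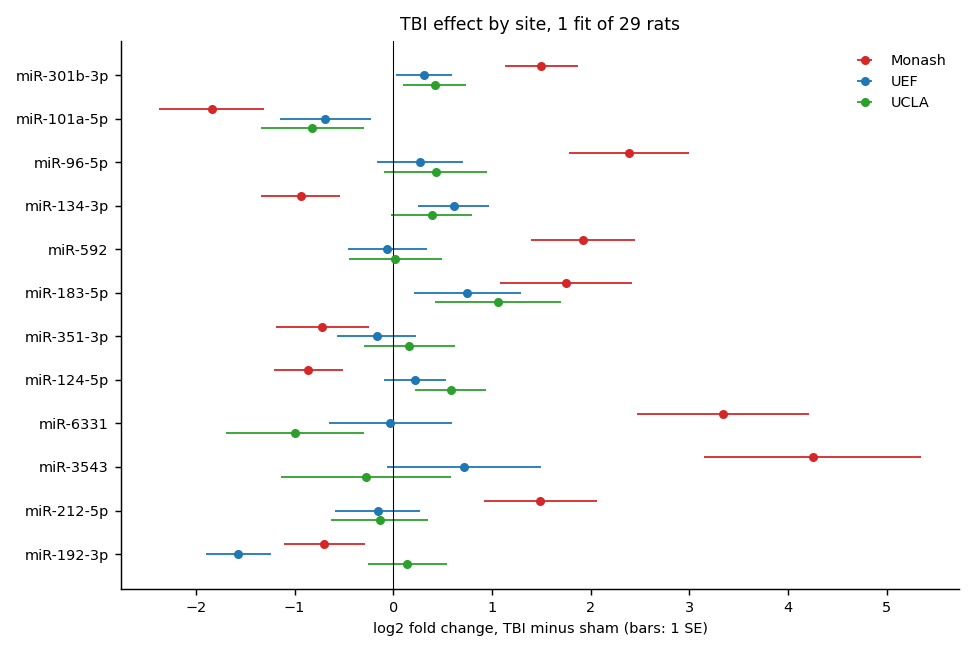
Log2 fold changes (TBI minus sham) at each site from 1 edgeR fit of 29 rats, for the 12 miRNAs with the lowest p at Monash, with bars of 1 SE. The Monash values of miR-96-5p, miR-592, miR-6331, miR-3543 and miR-212-5p lie to the right of the UEF and UCLA values, and those of miR-134-3p and miR-124-5p to the left. Because the 12 were chosen for their p in these Monash rats, more extreme Monash values follow in part from the choice. The edgeR test of the difference between Monash and the other sites passed for none of them.

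The 5 TBI rats were not uniform by outcome. In TBI+ against TBI− rats at Monash, 25 of 741 miRNAs were higher (3.37%) and 0 were lower (0%), with 138 at an unadjusted p under 0.05 (edgeR). The one-sided split depended on the fit: DESeq2 called 31 higher and 20 lower, and the edgeR fit of all 29 rats, added after seeing the data, 50 higher and 12 lower. The log2 fold changes of the 25 ranged from 1.48 to 3.39. In all 25, both TBI+ rats were above the 6 sham and TBI− rats. Because these 25 were chosen as higher in TBI+ than in TBI− rats, that separation follows in part from the choice. So do the shares of counts given next. The 25 were of modest abundance, with means of 11 to 145 CPM (median 31.7, against 37.2 for all tested), and together they held 0.0457% to 0.0936% of counts in the sham and TBI− rats, 0.245% in TBI+ rat 1 and 0.35% in TBI+ rat 2. TBI− rats against sham rats gave 0 of 721 (0%, 31 at an unadjusted p under 0.05), and TBI+ rats against sham rats gave 13 of 726 higher (1.79%). These comparisons share rats and are given side by side.

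The 3 miRNAs with the lowest p are shown with their seed in capitals. They lie at chr6:134321201-134321223 in the Dlk1-Dio3 region, chr1:160011214-160011235 in the gene Tenm4 and chr6:112811880-112811901 in the gene Alkbh1.
miR-337-3p: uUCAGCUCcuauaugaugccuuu
miR-708-3p: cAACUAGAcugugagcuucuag
miR-3068-3p: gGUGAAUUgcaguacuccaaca
miR-337-3p was at 7.79, 8.08 and 11.1 CPM in sham, 8.52, 6.67 and 7.86 CPM in TBI− and 64.5 and 75.1 CPM in TBI+ rats (log2 fold change 3.18, SE 0.34, quasi-likelihood adjusted p = 0.00186). miR-708-3p was at 12.0, 16.2 and 13.7 CPM in sham, 13.5, 14.9 and 9.35 CPM in TBI− and 71.4 and 139 CPM in TBI+ rats (3.06, SE 0.39, quasi-likelihood adjusted p = 0.00463). Sham and TBI− rats were alike in both, and the TBI+ rats stood several-fold above them. miR-3068-3p was at 98.8, 90.3 and 91.5 CPM in sham, 72.6, 52.7 and 77.8 CPM in TBI− and 333 and 341 CPM in TBI+ rats (2.32, SE 0.32, quasi-likelihood adjusted p = 0.00463). In the opposite arms the TBI+ rats were not above the others. miR-337-5p was at 10.3 to 20.2 CPM in sham and 7.86 to 22 CPM in TBI rats, miR-708-5p at 24.7 to 47.3 and 16.8 to 52.9 CPM, and miR-3068-5p at 25.7 to 38.9 and 14.9 to 96.2 CPM. Of the 87 members of the Dlk1-Dio3 list tested in this fit, 5 were among the 25, against 25 of all 741 miRNAs (3.37%). Whether these shares differ was not tested.

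The count rested on few rats: it was 1 without TBI+ rat 2, 33 without TBI+ rat 1, 5 without TBI− rat 1, 7 without TBI− rat 3 and 15 without any 1 of the sham rats. Without TBI+ rat 2, miR-708-3p (log2 fold change 2.50) and miR-3068-3p (2.31) had a quasi-likelihood adjusted p of 0.0502, and miR-337-3p passed. At UEF the same 25 miRNAs did not follow the outcome, and at UCLA they went the opposite way. Their median log2 difference of TBI+ minus TBI− was 0.12 at UEF and -1.65 at UCLA, against 2.26 at Monash. All 25 had a difference below 0 at UCLA, and in 20 of them every UCLA TBI+ rat was below every other UCLA rat (12.7% of all miRNAs). The comparison of the TBI+ effect between Monash and UCLA, added after these values were seen, called 83 of 754 miRNAs higher (11%) and 34 lower (4.51%) at Monash. Against UEF it called 14 of 754 higher (1.86%). Both share the Monash TBI rats with the comparison that gave the 25. For miR-337-3p the TBI+ effect at Monash exceeded that at UCLA by 6.32 on the log2 scale (SE 0.52, quasi-likelihood adjusted p = 6.0e-10).

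Across the 29 libraries these miRNAs fell into a low and a high level that crossed sites and groups. For the Monash TBI− and TBI+ libraries the level follows from how the 25 were chosen. Only the Monash sham, UEF and UCLA libraries lay outside that contrast. Their median in a library was 13.1 to 24.3 CPM in 9 libraries, the Monash sham, Monash TBI− and UCLA TBI+ rats, and 37.4 to 93.3 CPM in the other 20, which were all UEF rats, the Monash TBI+ rats and the UCLA sham and TBI− rats. miR-337-3p was at 6.47 to 10.8 CPM in the 9 and at 36.1 to 110 CPM in the 20. For 15 of the 25 miRNAs all 9 were below all 20, as for 21 of all 754 (2.79%), and no miRNA had all 9 above all 20. The 9 libraries stand together in columns 15 to 23 of the deposited table, and the table gives no reason for its column order. The labels record no batch for them. At Monash the outcome and this division of libraries cannot be told apart, and TBI against sham compared 3 sham libraries of the low level with 3 of the low and 2 of the high level. The comparison within the low level is that of the TBI− with the sham rats, which passed for 0 miRNAs.

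**Figure D5:**
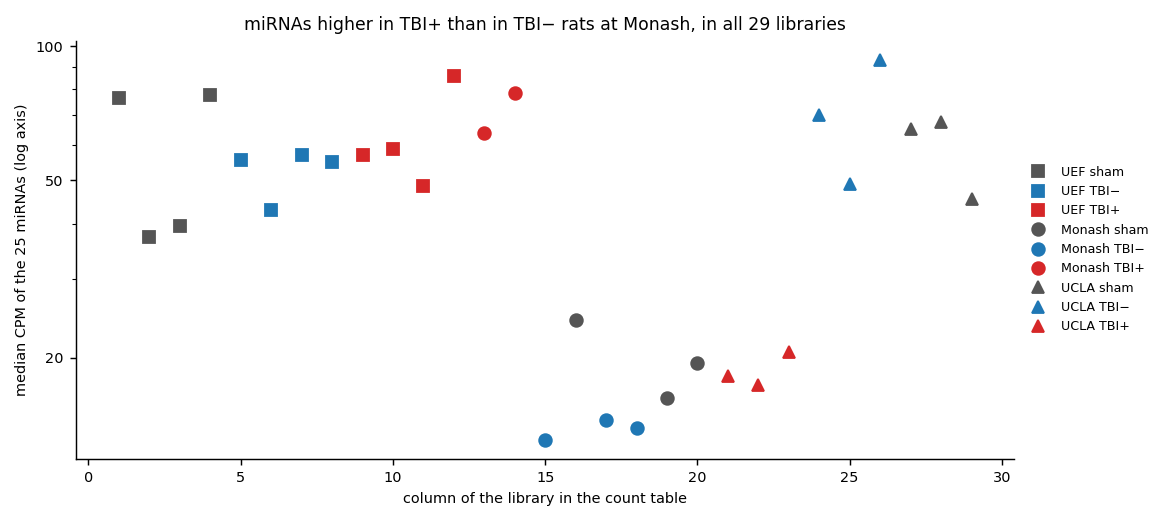
Median CPM (log axis) of the 25 miRNAs that were higher in TBI+ than in TBI− rats at Monash, for each of the 29 libraries in the column order of the deposited table, with the site by symbol and the group by colour. Libraries 15 to 23 (Monash sham, Monash TBI− and UCLA TBI+) lie between 13.1 and 24.3 CPM, and all others at 37.4 CPM or above. The levels of the Monash TBI− and TBI+ libraries follow from how the 25 were chosen.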

How the data were processed

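Per the labels and the study's methods, RNA from 200 µl of plasma was made into QIASeq libraries with molecular identifiers and sequenced as 75-bp single reads. The authors used cutadapt for trimming, Bowtie for mapping to Rnor_6.0 and miRBase version 21 for annotation, and the deposited table holds whole-number counts of 754 miRNAs per rat without normalization. Whether reads of 1 molecule were merged is not given in the sources used here, and unmerged copies would make counts less independent. 7 names join miRNAs that share a count. The 1 rat that the study excluded was not analysed here.

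Groups came from the labels. Counts were tested with edgeR 4.0.16 in R 4.3.3 (TMM, filterByExpr with a minimum of 10 counts, quasi-likelihood F test, Benjamini-Hochberg over all miRNAs tested, threshold 0.05), in fits of the 8 Monash rats without covariates or of all 29 rats with site-by-group means. The biological coefficient of variation was 0.502 in the former. Per-rat values were compared by two-sided exact permutation of means (Python 3.11.15, scipy 1.17.1). CPM are TMM-scaled, and log2 CPM had 2 CPM added. The scripts were tested on simulated counts. DESeq2 1.42.0, other scalings, filters, thinning, single rats left out and replicate numbers as a block were alternatives.

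Named miRNAs were the 12 with the lowest p, the 6 largest differences without overlap at a mean of at least 100 CPM, the 7 candidates, the 5 and 3 with the lowest p in the site and outcome comparisons, the 2 most abundant of each of 12 lists, the 5 largest and 2 reference miRNAs. Members and lists were chosen with earlier results of these data known.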

Additional observations from a re-analysis of the deposited data

Results flagged for a closer look

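Among the 5 Monash TBI rats, 9 of 55 measures had 1 rat far from the other 4 by Dixon's test, whose nominal rate is about 1 in 20. Some measures were chosen for differences in these same rats, and some vary together. The 9 can therefore not be set against that rate. TBI− rat 2 was far above for miR-592 (168 CPM), miR-6331 (271 CPM) and miR-3543 (996 CPM). TBI− rat 1 was far above for miR-206-3p (21156 CPM), miR-133a-3p/133b-3p (8117 CPM) and miR-205 (9550 CPM). TBI− rat 3 was far below for miR-301b-3p (12.3 CPM) and far above for miR-101a-5p (25.1 CPM), and TBI+ rat 1 was listed at 0 CPM for miR-301a-5p, a miRNA of at most 17 counts in any Monash rat. These rats were kept in the comparison of TBI with sham.

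The TBI+ effect (TBI+ minus TBI−) differed between sites in an edgeR test of the difference. It was higher at Monash than at UCLA by 6.32 on the log2 scale for miR-337-3p, 6.62 for miR-708-3p and 4.02 for miR-3068-3p. Over all miRNAs, 83 were higher and 34 lower at Monash than at UCLA, and 14 were higher at Monash than at UEF. The comparison was added after the data were seen. The named miRNAs were those with the lowest p in TBI+ against TBI− at Monash. The tested difference contains that contrast from the same rats, so its size for them follows in part from the choice. The part of library handling in the differences between sites was not tested.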

How the results depend on the processing

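TBI against sham at Monash gave 0 miRNAs in every alternative except the TBI+ rats alone against sham (13 higher), and 0 without any 1 rat. The Monash effect against the other sites gave 1 higher and 2 lower with DESeq2, and 0 to 1 in each direction without 1 Monash rat (1 and 1 without TBI− rat 3).

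TBI+ against TBI− at Monash gave 20 lower as well with DESeq2, 1 lower with DESeq2 size factors in edgeR and 1 among miRNAs with 10 or more counts in each rat. The fit of all 29 rats, added after seeing the data, gave 50 higher and 12 lower, and leaving out 1 rat gave 1 to 33 higher and 0 to 1 lower. Replicate numbers did not pair the rats: same-numbered rats correlated at -0.0989 to 0.199 in their deviations from group means. With them as a replicate block, 10 were higher in TBI+ rats and 0 differed in TBI against sham, and the TBI+ effect called 87 higher and 32 lower against UCLA and 13 higher against UEF, with 112 of 117 and 13 of 14 calls shared.

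The TBI+ effect against UCLA gave 60 lower with DESeq2, and 56 to 99 higher and 11 to 38 lower without 1 Monash rat. Against UEF it gave 31 higher and 3 lower with DESeq2, and 5 to 17 higher and 0 to 4 lower without 1 rat.

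List medians that moved by more than the spread between rats were those of brain (0.21 with TBI− rats alone, 0.72 with TBI+ rats alone, 0.09 without the TBI+ rats and TBI− rat 2, added after seeing the data), epithelium (0.30 with TBI− rats alone) and pancreas (0.32 with TBI+ rats alone). Without 1 rat they ranged over -0.23 to 0.25 for epithelium, -0.05 to 0.21 for imprinted Dlk1-Dio3 region, -0.97 to -0.37 for liver, -0.11 to 0.60 for muscle, -0.39 to 0.25 for red cell. The correlation of effects with UCLA became 0.05 without TBI+ rats, also an added setting. The log2 fold change of miR-132-3p turned to -0.21 with the TBI+ rats alone and ranged from -0.02 to 0.38 without 1 rat. The TBI minus sham difference in the log2 miR-451 to miR-23a ratio ranged from -0.50 to 0.52 without 1 rat. The cause was not tested. Depth limits the scarce miRNAs most, and with 5 against 3 rats a missed threshold does not show equal levels.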
